A study of Mus musculus with 13 samples.

Results

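The genes described here are the mouse olfactory receptor genes outside the 4 chromosomes with the best known clusters. They are the protein-coding genes with a symbol starting in Olfr on every autosome except Chromosomes 2, 7, 9 and 11, and they number 370 of 1113 such genes in the called genome. Another 736 lie on the 4 excluded chromosomes and 7 on Chromosome X. The 370 genes were found on 13 autosomes, and genes less than 500 kb apart were joined into 33 clusters. Of the clusters, 10 hold 1 gene, 6 hold 2 to 4 genes, and 17 hold 5 or more and together contain 343 genes (92.7%). The name and position chose the genes and no measured value entered this rule, although earlier results of these data were known.

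Olfactory receptors are G protein-coupled receptors that bind odorants on the cilia of sensory neurons in the nose. Each sensory neuron expresses a receptor gene from a single allele and keeps the remainder silent, and in the nose the silent clusters are packed in heterochromatin and gathered in nuclear foci. Outside the nose the genes are mostly inactive. All class I receptors, the fish-like group, lie on Chromosome 7, so the genes described here are class II receptors. In mouse nuclei, the major satellite repeats around the centromeres of different chromosomes gather into chromocenters, which are rich in heterochromatin. The question was whether these silent gene clusters are among the sequences that lie near chromocenters, and whether this holds in every cell type.

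Proximity to chromocenters was measured with sat4C, a chromosome conformation capture method with the major satellite repeat as the viewpoint. Chromatin was fixed with formaldehyde, cut with ApoI and MfeI, ligated, trimmed with NlaIII and ligated again, so that each sequenced fragment end marks DNA that was ligated to a satellite. Thymus was taken from 3 males of the C57BL/6 strain, all adult, with 6 sets of reads, as each mouse was sequenced on a GAII and on a HiSeq instrument. The cultured cells were IB10 (129/Ola) embryonic stem cells (ESCs, 3 replicates), neural precursor cells derived from these ESCs (NPCs, 2 replicates) and astrocytes derived from these NPCs (ACs, 2 replicates). Their labels give no genetic change and no drug treatment. All cultured cells go back to the same ESC line, and thymus differs from them in strain, tissue and culture at the same time, so these cannot be told apart. No olfactory sensory neurons were part of the series.

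The values analysed are the study's calls, PAD (pericentromere-associated domain) or non-PAD, at 399232 fragment ends of the mm9 genome in each of the 4 cell types. A call is the majority over replicates, and the 4 columns of calls hold no reads and no replicates. The depth behind a call is therefore unknown, no error between replicates can be given, and no test of a difference between cell types was possible. Counts of genes are descriptions of these calls, and neighboring genes of a cluster share domains and are not independent. The identity of the cells could not be checked against marker genes, since the calls do not measure expression. The NPC column stood apart before any receptor gene was considered. It called 68.9% of all fragment ends PAD, against 54.5% in ESCs, 54.0% in ACs and 52.2% in thymus, and it had the same call as thymus at 53.3% of ends. Counts over several cell types are therefore given with and without NPCs.

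Each gene took the call of the fragment end nearest to its midpoint. The median distance to that end was 2641 bp (range 1 to 29527 bp), against 3864 bp over all protein-coding genes. A receptor gene is short, with a median length of 966 bp, and 317 of 370 had no fragment end within the gene, so that a call describes the surrounding sequence more than the gene itself. The 370 genes were called by 355 different fragment ends. Positions of the calls fell on MfeI sites (49.9%) or NlaIII sites (47.9%) of the NCBIM37 sequence, which is mm9. Receptor genes are similar to each other, which could blur the mapping of reads. Among 270 of the 355 ends for which the first 30 bases from the MfeI site could be read in the reference, none shared these bases with another end. Inside the clusters 4 of 1335 did (0.3%), against 0.122% over the genome. Only identical bases among the called ends were counted. Nearly identical ends were not, so this cannot decide how well reads of similar genes were mapped.

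The following fragment ends called the genes on which the results turn, and are shown because they tie each call to a position in the genome. Where a stretch starts at an NlaIII site, it does not show the bases compared above, which were taken from the MfeI side. They are 40 bases of the plus strand of NCBIM37 from the position given in the calls, with the NlaIII site (CATG) or the MfeI site (CAATTG) at their start in capitals. *Olfr16* and *Olfr1507* were non-PAD throughout, *Olfr62* was PAD in the cultured cells and non-PAD in thymus, and the remaining pairs lie on either side of a border that runs through a cluster.
*Olfr16*, chr1:174886009-174886048: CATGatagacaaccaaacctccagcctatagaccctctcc
*Olfr62*, chr4:118334322-118334361: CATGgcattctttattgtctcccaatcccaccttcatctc
*Olfr724*, chr14:50577528-50577567: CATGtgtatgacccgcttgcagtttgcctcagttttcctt
*Olfr725*, chr14:50650305-50650344: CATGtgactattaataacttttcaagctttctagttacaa
*Olfr1507*, chr14:53113196-53113235: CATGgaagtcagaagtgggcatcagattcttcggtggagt
*Olfr99*, chr17:37420806-37420845: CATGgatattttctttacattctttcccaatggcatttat
*Olfr101*, chr17:37438022-37438061: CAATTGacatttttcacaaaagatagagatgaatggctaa

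Counted by gene, more than 50% of the receptor genes lay in PADs in each cell type, although fewer than on the 4 excluded chromosomes. PADs contained 260 of the 370 genes in ESCs (70.3%), 223 in NPCs (60.3%) and 270 in ACs (73.0%), with 215 in thymus (58.1%). Over all 22329 protein-coding genes these shares were 46.5%, 68.5%, 34.9% and 26.1%, so the receptor genes were above the background in ESCs, ACs and thymus and below it in NPCs. Large clusters weigh most in these shares. When each of the 33 clusters had 1 vote, by the majority of its genes, 57.6% were PAD in ESCs, 60.6% in NPCs and 54.5% in ACs, but only 36.4% in thymus. Protein-coding genes are sparse in PADs, and a second base is therefore the fragment ends. PADs held 72.9% of the 1669 ends inside the clusters in ESCs, 63.8% in NPCs and 75.3% in ACs, with 57.5% in thymus. In thymus this was close to the 52.2% over all ends, so the distance of the clusters from the background depends on the base of comparison.

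The olfactory receptor genes of Chromosomes 2, 7, 9 and 11 were in PADs more often, at 87.0% in ESCs, 83.8% in NPCs and 91.0% in ACs, with 81.7% in thymus. Those of Chromosome 11 were the exception, with 64.2%, 71.6%, 55.6% and 27.2% of 81 genes, and their shares in ESCs, ACs and thymus were below those of the 370 genes. Genes of a chromosome share clusters, and no test was made of these differences.

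**Figure D1:**
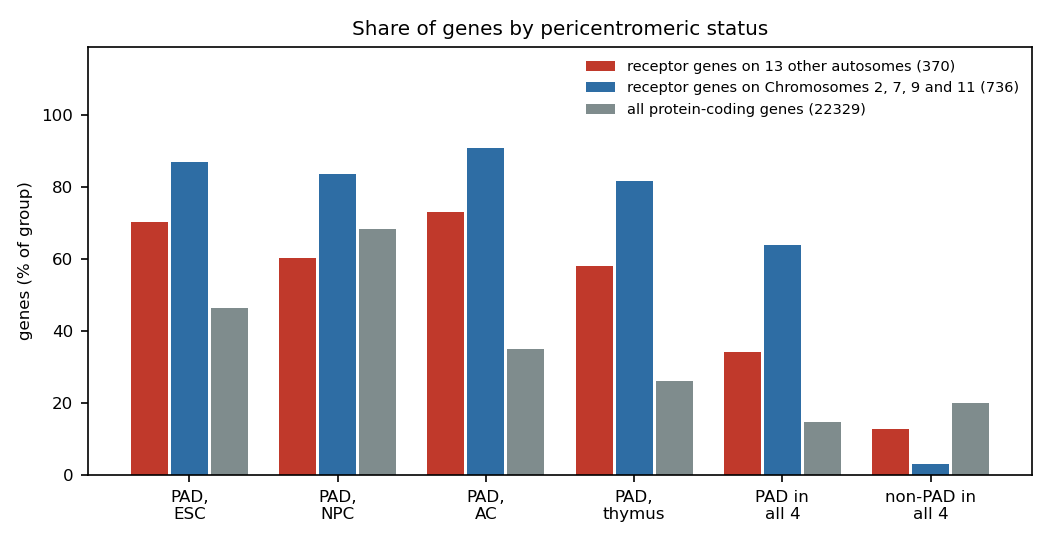
Share of genes (percent of each group, y axis) in PADs in each cell type, in PADs in all 4 and in non-PADs in all 4, for the 370 receptor genes on 13 autosomes (red), the 736 on Chromosomes 2, 7, 9 and 11 (blue) and all 22329 protein-coding genes (gray). The red bars lie between the blue and the gray bars except in NPCs, where 60.3% is below the 68.5% of all genes.

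Combined over the cell types, 127 genes (34.3%) lay in PADs in all 4, against 14.8% of all protein-coding genes and 63.9% of the receptor genes on the excluded chromosomes. Without NPCs, 168 genes (45.4%) were in PADs in the remaining 3 cell types, against 17.2%. Conversely, 47 genes (12.7%) were in non-PADs in all 4 cell types, against 20.1% of all genes, and 70 (18.9%) without NPCs, against 44.0%. With 1 vote per cluster the share in non-PADs in all 4 was 24.2% (8 of 33), on the other side of the 20.1% of all genes, and 27.3% of clusters were PAD in all 4. The next largest group, of 56 genes (15.1%, background 11.1%), was in PADs in the 3 cultured cell types and in non-PADs in thymus. It held 72 genes (19.5%, background 12.1%) when NPCs were left out. From ESCs to thymus, 74 genes (background 26.5%) were PAD in ESCs and non-PAD in thymus, and 29 (7.84% of 370, background 6.07%) were the reverse. The 29 genes came from 6 clusters, and 10 of them were PAD in thymus alone. By cluster votes only 1 of 33 (3.03%) changed from non-PAD in ESCs to PAD in thymus, below the 6.07% of all genes.

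Equal calls ran over whole clusters or long stretches of them. Much of this is given by the size of the domains. Neighboring genes of a cluster lay a median of 21.1 kb apart, whereas the median PAD around a receptor gene was 2225 kb in ESCs and 1592 kb in thymus. Pairs of other genes at the same spacing were not counted. Within clusters, 311 of 337 pairs of neighboring genes (92.3%) had the same call in all 4 cell types, and neighbors differed at 9 pairs in ESCs, 7 in NPCs and 3 in ACs, with 9 in thymus. All genes had the same 4 calls in 15 of the 23 clusters with at least 2 genes. The other 8 clusters contained 258 genes. No domain border crossed a receptor gene in ESCs, NPCs or ACs, and in thymus 2 were crossed, *Olfr459* on Chromosome 6 and *Olfr1516-ps* on Chromosome 10. With a median gene length of 966 bp few crossings can occur, and crossings were not counted over all genes. The 260 genes in ESC PADs were spread over 21 PADs, and the 215 in thymus PADs over 16.

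**Figure D2:**
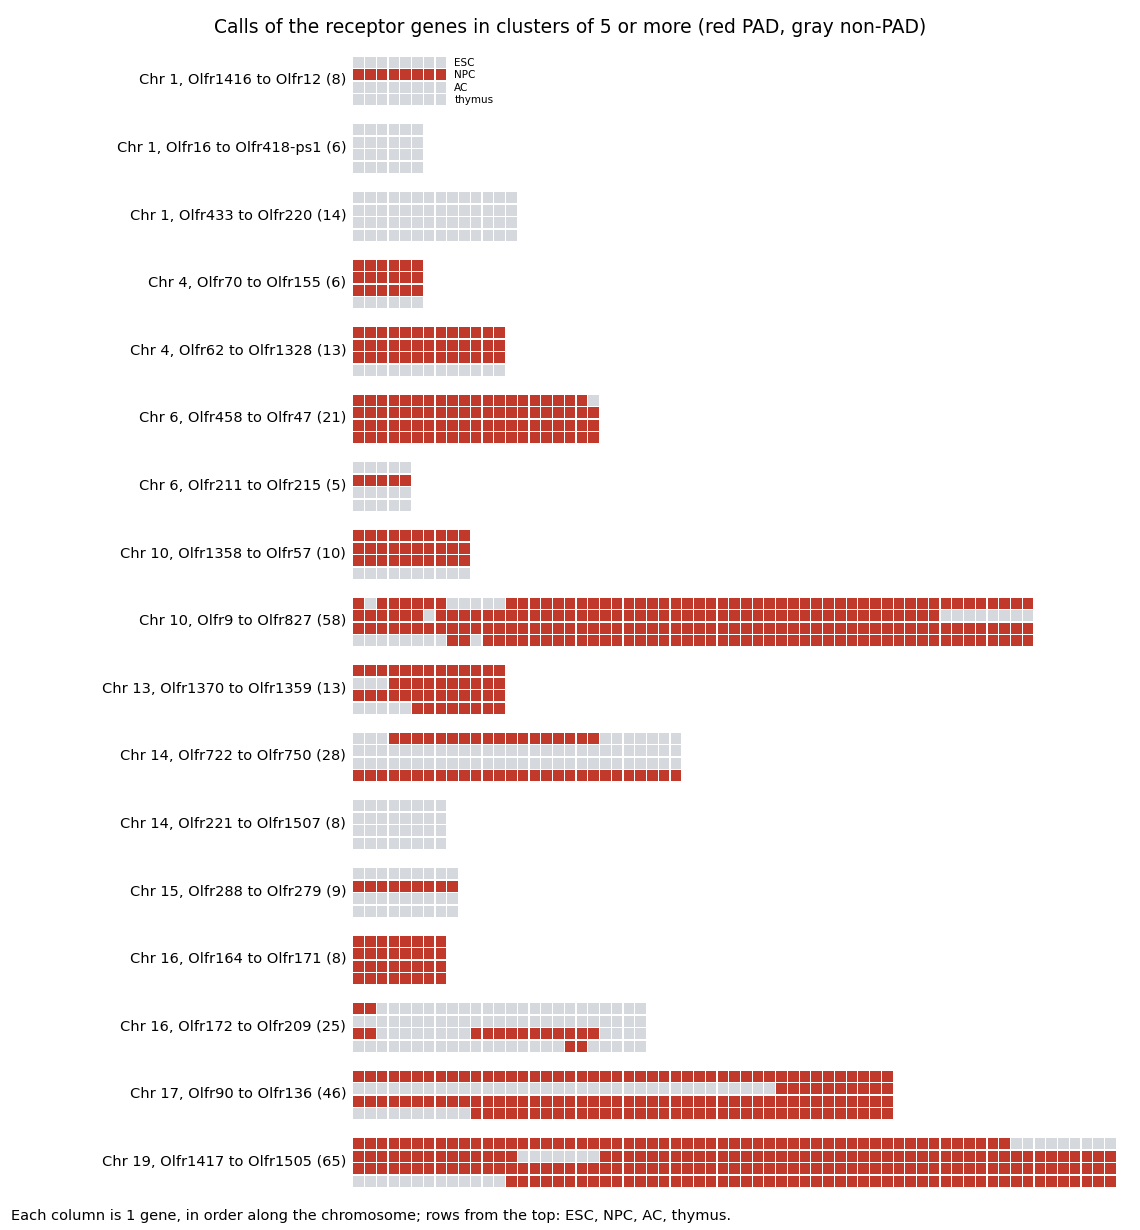
Calls of the 343 receptor genes in the 17 clusters of 5 or more, with 1 column per gene in order along the chromosome and 1 row per cell type (from the top ESC, NPC, AC, thymus); red is PAD and gray non-PAD. In 10 of the 17 clusters every gene has the same 4 calls, and the gray thymus rows fill 9 clusters.

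By gene counts, the clusters of 20 or more genes were more often in PADs than the smaller ones in ESCs, ACs and thymus. The 6 clusters of 20 or more genes had 188 of 243 genes in thymus PADs (77.4%), whereas the 11 clusters of 5 to 19 genes had 16 of 100 (16.0%). In ESCs 79.8% of the genes in the larger clusters and 50 of the 100 in the smaller ones were PAD, and in ACs 83.5% and again 50. In NPCs the order was the other way round, with 56.8% in the larger and 69 of 100 in the smaller clusters. The share did not rise steadily with size. The 27 genes in the 16 clusters of fewer than 5 genes had 16 in ESC PADs (59.3%), 17 in AC PADs (63.0%) and 11 in thymus PADs (40.7%), above the clusters of 5 to 19 genes, and 16 in NPC PADs (59.3%). Thymus PADs held no gene of 9 of the 11 smaller clusters, and the 16 genes came from *Olfr164* to *Olfr171* on Chromosome 16 and the distal genes of the Chromosome 13 cluster. These size classes were chosen after the values were seen, and a few clusters decide each share.

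Several clusters were in PADs throughout or nearly so. The cluster from *Olfr164* to *Olfr171* on Chromosome 16 (8 genes, 19285836 to 19625231) was PAD at every fragment end in all 4 cell types, inside PADs of 2.20 Mb in ESCs, 13.7 Mb in NPCs, 1.69 Mb in ACs and 1.16 Mb in thymus. Its neighbors, the immunoglobulin lambda constant gene *Iglc2* and the lysosomal membrane gene *Lamp3*, had the same calls. On Chromosome 6, the cluster from *Olfr458* to *Olfr47* (21 genes, 42410075 to 43186635) was PAD in NPCs, ACs and thymus at all 124 fragment ends. In ESCs 20 of its genes were PAD and a border at 43185312 left *Olfr47*, the last gene, in a non-PAD. The small groups *Olfr461* to *Olfr460* and *Olfr459* upstream, which lie on either side of the T cell receptor beta locus, were PAD in all 4 cell types. *Olfr459* lay at the edge, as the thymus border ran through the gene at 41721723, and the blood group gene *Kel* on its other side was non-PAD in thymus. *Olfr55*, *Olfr239* and *Olfr63* on Chromosome 17, *Olfr161* on Chromosome 16 and *Olfr267* on Chromosome 4 were likewise PAD in every cell type.

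The largest cluster, on Chromosome 19 from *Olfr1417* to *Olfr1505* (65 genes, 11902567 to 13994534), was entirely PAD in ACs. PADs held 56 of its genes in ESCs, 58 in NPCs and 52 in thymus. The genes that left the PAD differed between the cell types and lay in separate stretches. In thymus these were the 13 proximal genes up to *Olfr1432*, next to the syntaxin gene *Stx3*, which was also PAD in the cultured cells and non-PAD in thymus. In NPCs they were 7 genes from *Olfr235* to *Olfr1441*, and in ESCs the 9 distal genes from *Olfr1495* to *Olfr1505*. The 36 genes that were PAD in all 4 cell types were *Olfr262* and the 35 genes from *Olfr1442* to *Olfr1494*. A thymus non-PAD between *Olfr1441* and *Olfr1442* contained the macrophage gene *Mpeg1* and *Dtx4*, and no receptor gene.

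The cluster at the distal end of Chromosome 10, from *Olfr9* to *Olfr827* (58 genes, 128426905 to 129648205), was again entirely PAD in ACs, within a PAD of 1.69 Mb that reached the last called fragment end of the chromosome. PADs held 52 of its genes in ESCs, 49 in NPCs and 49 in thymus. The 37 genes from *Olfr776* to *Olfr247* were PAD in all 4 cell types. The proximal part changed call most often, with 10 stretches of equal calls in the cluster, more than in any other. *Olfr763* was non-PAD in ESCs within a domain of 2 fragment ends (14.3 kb), *Olfr769* in NPCs within 6 fragment ends (25.1 kb), and *Olfr771* and *Olfr772* were PAD in thymus within 13 fragment ends (36.5 kb). Such short domains rest on few ends, and *Olfr763* became PAD in ESCs when domains of fewer than 5 ends were joined to their surroundings. In NPCs a single border at 129440275 put the 8 most distal genes, *Olfr820* to *Olfr827*, in a non-PAD.

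On Chromosome 17, the cluster from *Olfr90* to *Olfr136* (46 genes, 37222136 to 38473042) adjoins the major histocompatibility complex. All 46 genes were PAD in ESCs and ACs, inside PADs of 2.23 and 2.54 Mb. In thymus 36 were PAD, and a border at 37420854 separated the 10 genes from *Olfr90* to *Olfr99* from *Olfr101* onward. The fragment end shown above for *Olfr99* is the last before this border. On its proximal side lay *H2-M3*, which presents formylated peptides to T cells, in a thymus non-PAD of 3.85 Mb, and on its distal side lay *H2-M2*, in a thymus PAD of 5.63 Mb. In NPCs only the 10 genes from *Olfr129* to *Olfr136* were PAD. *Olfr124*, the broadly tuned receptor SR1, was PAD in ESCs, ACs and thymus and non-PAD in NPCs. The GABA receptor gene *Gabbr1*, next to *Olfr90*, was PAD in ACs only.

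**Figure D3:**
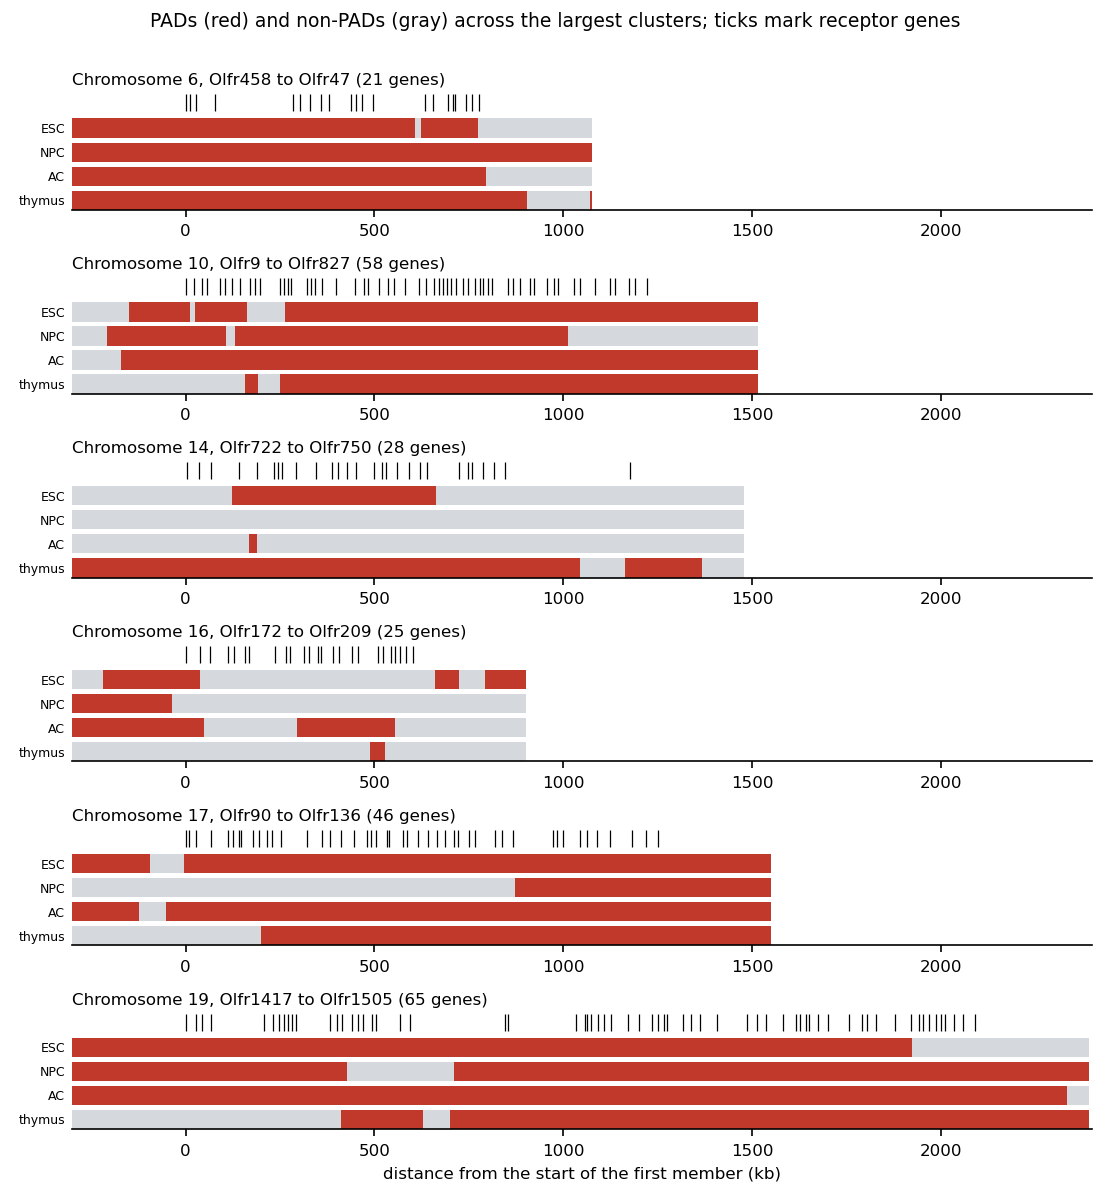
PADs (red) and non-PADs (gray) in the 4 cell types across the 6 clusters of 20 or more genes and 300 kb to each side, against the distance in kb from the start of the first receptor gene; black ticks mark the midpoints of receptor genes. Borders cut the clusters at different places in different cell types, and the Chromosome 14 cluster is mostly red in thymus, partly in ESCs and gray at every gene in NPCs and ACs.

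The Chromosome 14 cluster from *Olfr722* to *Olfr750* (28 genes, 50513935 to 51691117) was most often PAD in thymus. All 28 genes were PAD in thymus, 18 were PAD in ESCs, and none in NPCs or ACs. The 18 genes formed a block from *Olfr725* to *Olfr743* in an ESC PAD of 540.3 kb, with borders at 50635906, between *Olfr724* and *Olfr725*, and at 51176157. In thymus a non-PAD between *Olfr749* and *Olfr750* contained purine nucleoside phosphorylase genes and several ribonuclease genes, while the DNA repair genes *Apex1* and *Parp2* and the telomerase protein gene *Tep1*, also inside the cluster, were PAD in thymus and non-PAD in the cultured cells. Together with *Olfr720*, *Olfr31* and *Olfr721-ps1* (PAD in ACs and thymus), this cluster made Chromosome 14 the chromosome with 31 of 40 receptor genes in thymus PADs, 19 in ESC PADs, 3 in AC PADs and 0 in NPC PADs. Of the 29 genes that were non-PAD in ESCs and PAD in thymus, 13 lay here. Among the other protein-coding genes of Chromosome 14, 34.3% were PAD in thymus, 56.8% in ESCs, 34.3% in ACs and 57.1% in NPCs.

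Less than 1 Mb farther along Chromosome 14, the cluster from *Olfr221* to *Olfr1507* (8 genes, 52654757 to 53115370) was non-PAD at all 60 fragment ends in every cell type. *Olfr1507*, known as MOR28, lies beside the H enhancer and near the T cell receptor alpha locus. Its nearest domain border was 1557 kb away in ESCs and 1230 kb away in thymus. The cluster also contained 8 other genes, among them the methyltransferase gene *Mettl3*, which were non-PAD throughout. *Olfr49*, downstream of the T cell receptor alpha region, was PAD in ESCs only.

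The 2 clusters on distal Chromosome 1 were likewise non-PAD throughout, from *Olfr16* to *Olfr418-ps1* (6 genes, 174886899 to 175201268) and from *Olfr433* to *Olfr220* (14 genes, 175972064 to 176379733). They shared a non-PAD of 4.08 Mb in ESCs, 6.62 Mb in NPCs, 8.76 Mb in ACs and 4.57 Mb in thymus. *Olfr16*, or MOR23, a receptor for lyral that is also known from sperm, lay 1117 kb from the nearest border in thymus and 1284 kb in ESCs. The region holds the pentraxin gene *Apcs*, the IgE receptor gene *Fcer1a*, the interferon-inducible gene *Ifi205* and the alpha spectrin gene *Spna1*, which were non-PAD in all 4 cell types. The remaining genes without a PAD call were 5 genes on Chromosome 8 (*Olfr372*, *Olfr373*, *Olfr374*, *Olfr370* and *Olfr371*), *Olfr718-ps1* on Chromosome 5, *Olfr466* on Chromosome 13 and 12 genes of a Chromosome 16 cluster.

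That Chromosome 16 cluster, from *Olfr172* to *Olfr209* (25 genes, 58760265 to 59362042), was the only cluster of 20 or more genes that was mostly non-PAD in thymus and in ESCs. PADs held 2 of its genes in ESCs, 0 in NPCs and 13 in ACs, with 2 in thymus. The 2 ESC genes, *Olfr172* and *Olfr173*, were at its proximal edge, beside the claudin gene *Cldn25*, and the 2 thymus genes, *Olfr201* and *Olfr202*, formed a PAD of 4 fragment ends (39.4 kb) inside it, which was lost when domains of fewer than 5 ends were joined to their surroundings. The AC PADs held *Olfr172*, *Olfr173* and the 11 genes from *Olfr190* to *Olfr203*. The cluster had no other protein-coding gene within it.

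A group of clusters was in PADs in all cultured cells and left them in thymus. They were *Olfr70* to *Olfr155* (6 genes), *Olfr275* to *Olfr270* (4 genes) and *Olfr62* to *Olfr1328* (13 genes) on Chromosome 4, *Olfr1358* to *Olfr57* on Chromosome 10 (10 genes) and *Olfr266* on Chromosome 3. In thymus the non-PADs around the 3 larger of these clusters spanned 8.61 Mb around *Olfr70* to *Olfr155*, 7.07 Mb around *Olfr62* to *Olfr1328* and 13.6 Mb around *Olfr1358* to *Olfr57*. The non-PAD around *Olfr275*, *Olfr273*, *Olfr272* and *Olfr270* was only 368 kb long, and the gene *4930547C10Rik* on its proximal side was PAD in all 4 cell types. On Chromosome 4, 24 of 24 receptor genes were PAD in ESCs, NPCs and ACs, and 1 was in thymus. Next to these clusters lay genes of other kinds, such as the ribosome biogenesis gene *Ebna1bp2* and the matrix metalloproteinase inhibitor gene *Reck*, and both had the calls of the cluster beside them. *Olfr15* on Chromosome 16 and the T cell potassium channel gene *Kcna3* beside *Olfr266* had the same pattern. *Olfr19* on Chromosome 16, with no other receptor gene within 500 kb, was PAD in ESCs and NPCs and non-PAD in ACs and thymus.

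On Chromosome 13 the cluster from *Olfr1370* to *Olfr1359* (13 genes, 21164218 to 21795834) leads into the large histone gene cluster. All 13 genes were PAD in ESCs and ACs, 10 in NPCs and 8 in thymus. Zinc finger genes such as *Zkscan3* lie between *Olfr1367* and a thymus border at 21574390. This border separated the 5 proximal genes, up to *Olfr1367*, from the 8 distal genes from *Olfr1366* to *Olfr1359*. The next gene, the histone gene *Hist1h2bl*, was PAD in all 4 cell types. The proximal neighbor *Aoah* was also PAD in all 4, so that the thymus non-PAD of 450.0 kb around the proximal genes lay between PADs.

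Another group was PAD in NPCs alone, namely *Olfr1416* to *Olfr12* on Chromosome 1 (8 genes), *Olfr211* to *Olfr215* on Chromosome 6 (5 genes), *Olfr288* to *Olfr279* on Chromosome 15 (9 genes) and *Olfr1402* on Chromosome 3. These 23 genes lay in NPC PADs that ranged from 381.7 kb around *Olfr211* to *Olfr215* to 2.23 Mb around *Olfr1416* to *Olfr12* for the 3 clusters. This pattern was less common among the receptor genes than among all protein-coding genes. Of all genes, 44.0% were non-PAD in ESCs, ACs and thymus, and 20.1% were non-PAD in NPCs as well. For the receptor genes these shares were 18.9% and 12.7%. NPC PADs held more of all fragment ends than those of the other cell types, as given above, and the part of that in these 23 calls was not tested.

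Compared by pairs of cell types, ESCs and ACs shared the status of 320 of the 370 genes (86.5%), the most of any pair, and NPCs and thymus that of 214 (57.8%), the fewest. Over all protein-coding genes the corresponding shares were 77.2% and 42.2%. ACs and thymus shared the status of 70.0% of the receptor genes against 77.8% of all genes, and were the only pair in which the receptor genes were below all genes. Of the genes that differed in this pair, 83 were PAD in ACs and 28 in thymus. The calls of a cell type enter several pairs, and the pairs are not independent.

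The mean share of PAD calls was lower around the clusters than inside them, most clearly in ESCs and ACs. Averaged over the 17 clusters of 5 or more, with equal weight for each, 55.6% of the fragment ends inside the clusters were PAD in ESCs, 48.2% in the first 100 kb outside, and 33.2% from 400 to 500 kb. In ACs these values were 56.6%, 53.1% and 22.3%, and in thymus 34.0%, 30.8% and 22.4%. The thymus mean did not fall steadily, as it was 13.8% from 500 to 600 kb and 24.1% from 800 to 900 kb, and its median over the clusters was 0% inside and in every bin. In NPCs the mean was 64.8% inside and between 53.2% and 62.4% in every bin of 100 kb up to 1000 kb. The equal weights put the thymus mean inside the clusters below the pooled 57.5%, because the smaller clusters were mostly non-PAD. The 2 clusters of distal Chromosome 1 lie within 1 Mb of each other and count in each other's surroundings. The same holds for the Chromosome 14 clusters from *Olfr722* to *Olfr750* and from *Olfr221* to *Olfr1507*.

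**Figure D4:**
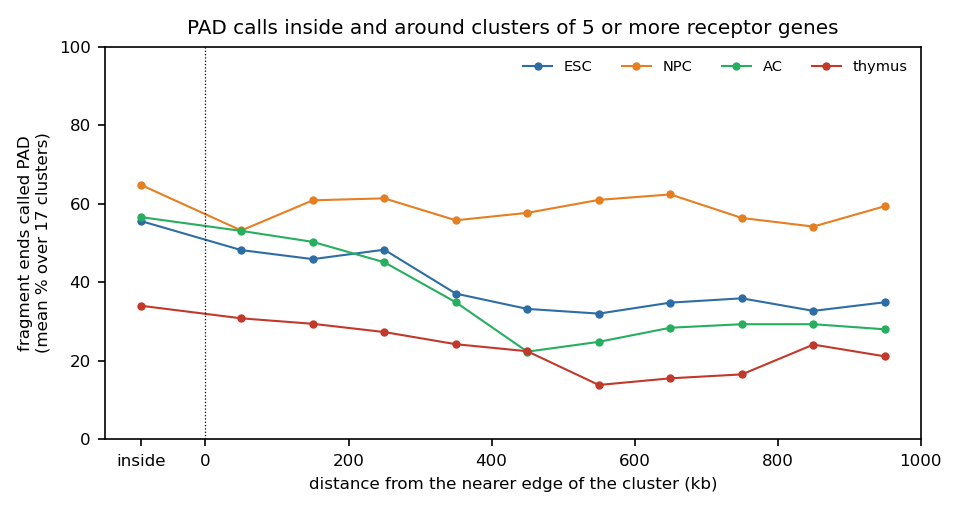
Mean share of fragment ends called PAD (percent, y axis) inside the 17 clusters of 5 or more genes and in bins of 100 kb on both sides up to 1000 kb from the edge (x axis), each cluster with equal weight. ESCs and ACs fall from 55.6% and 56.6% inside to 33.2% and 22.3% at 400 to 500 kb, and NPCs stay above 50% throughout. Over all fragment ends the shares are 54.5% in ESCs, 54.0% in ACs and 68.9% in NPCs.

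Other genes were PAD more often beside clusters that were mostly PAD than beside the remaining clusters, although in thymus fewer than 50% of them were. Of 605 other protein-coding genes within 500 kb of a cluster, those beside clusters that were mostly PAD were themselves PAD in 71.1% of cases in ESCs, 87.3% in NPCs and 78.2% in ACs, with 48.6% in thymus. Beside the remaining clusters these shares were 11.7%, 13.2%, 4.23% and 4.42%. Genes near each other share domains, so this describes how far the domains reach. The 76 other genes inside the clusters were PAD in 59.2%, 53.9%, 59.2% and 44.7% of cases.

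The sequence around the receptor genes was poor in GC and in other genes. The 100 kb around a receptor gene had a median GC content of 38.8% (range 36.1% to 48.9%), against 44.3% around all protein-coding genes and 38.0% around the receptor genes of Chromosomes 2, 7, 9 and 11. Receptor genes in thymus PADs had a median of 38.2% and those in thymus non-PADs 40.4%, and for all genes the values were 40.2% and 45.9%. The 56 genes that were non-PAD in thymus and PAD in all cultured cells had the highest median of these groups of receptor genes, 41.4%. Within 500 kb, a median of 9 other genes lay around all receptor genes and 15 around all protein-coding genes. The latter count includes the gene itself if it is no receptor gene. The 56 genes had a median of 17, above both, against 5 around the 127 genes that were PAD in all 4 cell types. Low GC content did not go with PAD status everywhere. The 47 genes in non-PADs in all 4 cell types had a median of 38.7%, close to that of all receptor genes, with 11 other genes within 500 kb.

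**Figure D5:**
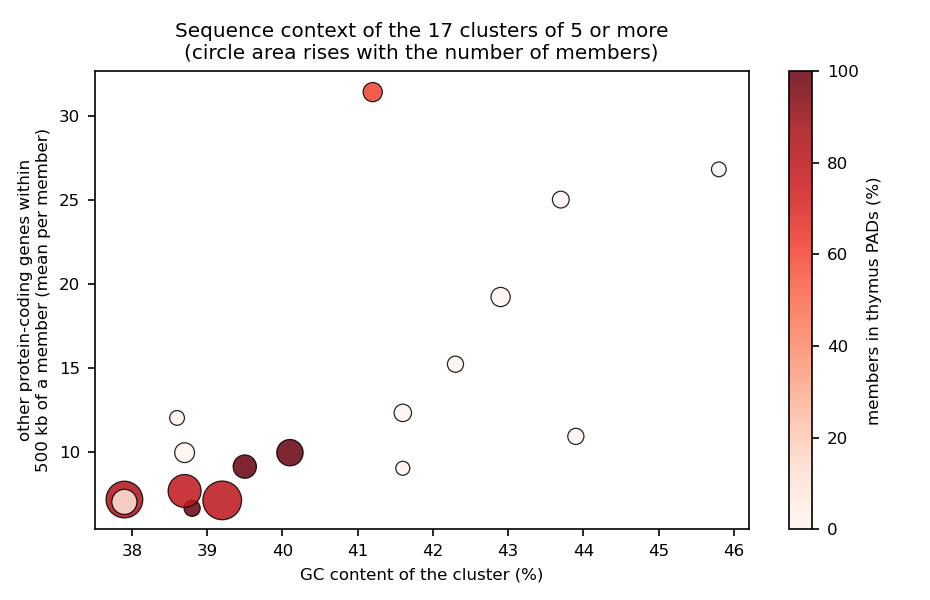
GC content (percent, x axis) and mean number of other protein-coding genes within 500 kb of a member (y axis) for the 17 clusters of 5 or more, colored by the share of members in thymus PADs (percent), with circles larger for clusters with more members. No cluster above 42% GC has a gene in thymus PADs, and the darkest circles lie below 41%, beside 3 pale circles of similar GC content.

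In ESCs, ACs and thymus, the genes through which olfactory receptors signal and are chosen were in PADs less often than the receptors. In NPCs they were in PADs more often. Odorant signaling runs from the receptor through the G protein subunit *Gnal* and adenylyl cyclase *Adcy3* to the cyclic nucleotide gated channel. Of 18 such genes and trafficking factors, 6 were PAD in ESCs, 14 in NPCs and 5 in ACs, with 3 in thymus. Only the channel subunit gene *Cnga2* and *Reep1* were PAD in all 4 cell types, and *Gnal*, *Gng13* and the chloride channel gene *Ano2* were PAD in none. *Adcy3* was PAD in NPCs and ACs, and the chaperone genes *Rtp1* and *Rtp2* were non-PAD in ACs and thymus. Of 25 regulators of receptor choice and silencing, 9 were PAD in ESCs, 20 in NPCs and 6 in ACs, with 2 in thymus. *Lhx2*, which encodes a transcription factor required for receptor expression, was PAD in all 4 cell types. *Ebf1* and the demethylase gene *Kdm1a* were PAD in NPCs only, as was *Lbr*, which encodes the lamin B receptor that is low in olfactory neurons. Counted over all genes, the background given above was 46.5% in ESCs, 68.5% in NPCs and 34.9% in ACs, with 26.1% in thymus. Both short lists were below it in ESCs, ACs and thymus and above it in NPCs. With 18 and 25 genes, a few calls decide each of these distances from the background, and none was tested.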

How the data were processed

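The series holds sat4C on thymus, ESCs, NPCs and ACs. The authors counted reads per 4C fragment end of mm9, sorted them into classes, fitted a two-state hidden semi-Markov model to each replicate and took the majority over replicates, with pooled reads for ties. The deposited values are these calls, with other values such as coverage not analysed here. Which aligner was used is not given in the sources here.

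Genes were taken from GENCODE vM1 and placed by midpoint on the nearest fragment end, with pandas 2.3.3, numpy 2.4.6 and scipy 1.17.1 under Python 3.11.15. Consecutive ends of equal call were joined into domains, with borders halfway between starts of ends of different calls. Placement, domains and clusters were tested on simulated calls in which domains had been planted. Of the 370 symbols, 10 carry -ps, which marks pseudogenes, but are annotated as protein-coding. Another 51 protein-coding genes of the annotation lay outside the called sequence. GC content was read from NCBIM37 in windows of 100 kb. RefSeq promoters were not used, as their build differs.

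The members and gene lists were chosen with earlier results of these data known. Named genes were drawn from the first and last of each cluster of 5 or more, all genes of smaller clusters, genes whose call differs from most of their cluster, genes crossed by a border, the genes beside clusters, *Olfr15*, *Olfr16*, *Olfr124*, *Olfr1507* and the lists. Genes at borders, other genes inside clusters, the comparison of cluster sizes and GC content were chosen after their values were seen. Alternatives changed the placement of genes, the genes counted and the weight of clusters.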

Additional observations from a re-analysis of the deposited data

How the results depend on the processing

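How a gene was placed changed few calls. Of 370 genes, 369 kept all 4 calls when placed by transcription start site, 370 by any overlap with a PAD or by the midpoint of the longest transcript, 367 when runs under 5 fragment ends were absorbed, 359 by the majority of ends within 25 kb and 363 by the deposited interval that holds the midpoint. The last setting and the restriction to clusters of 5 or more were chosen after seeing the data. Since no replicate error exists, a share was taken as moved when it left the 95% Wilson interval of the reported share, and 98 of 108 shares did not. The interval treats genes as independent, which genes of a cluster are not, so it is only a fixed yardstick. Settings such as the transcription start site can hardly change the call of so short a gene, and the tally does not measure robustness. Weighting clusters instead of genes, with 1 vote per cluster, moved most shares: to 57.6% in ESCs, 54.5% in ACs and 36.4% in thymus PADs, 27.3% PAD in all 4 cell types, 30.3% PAD in ESCs, ACs and thymus, 24.2% non-PAD in all 4, and 3.03% non-PAD in ESCs and PAD in thymus. Without the Chromosome 19 cluster of 65 genes, 54.1% were in NPC PADs and 67.2% in AC PADs. With genes within 5 kb of a fragment end only, 9.67% were non-PAD in all 4. The number of clusters was 33 and stayed within 1.5 times this at joining distances of 250 and 1000 kb. Pseudogenes added or -ps symbols removed moved no share. No paired analysis was possible because each cell type has 1 consensus call per fragment end and no replicate columns, and for the same reason no replicate could be left out.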

Other observations

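Receptor genes of other chemosensory families on the same autosomes differed from each other in status. For comparison, 14.8% of all protein-coding genes were PAD in all 4 cell types, and 46.5% were PAD in ESCs, 68.5% in NPCs and 34.9% in ACs, with 26.1% in thymus. All 15 *Taar* genes, receptors for volatile amines in a cluster on Chromosome 10, were PAD in NPCs and non-PAD in ESCs, ACs and thymus, from *Taar1* to *Taar9*. The 3 *Tas1r* genes, which encode sweet and umami taste receptors on Chromosome 4, had the same calls. Of 34 *Tas2r* bitter receptor genes, 29 were PAD in all 4 cell types. *Tas2r104*, *Tas2r105*, *Tas2r106* and *Tas2r114* on Chromosome 6 were non-PAD in ESCs and PAD in the other 3 cell types, and *Tas2r119* on Chromosome 15 was non-PAD in all 4. The 7 formyl peptide receptor genes on Chromosome 17, which include sensory receptors of the vomeronasal organ and the leukocyte gene *Fpr1*, were PAD in ESCs, ACs and thymus, and *Fpr-rs6* and *Fpr-rs7* were non-PAD in NPCs.

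The 17 *Ms4a* genes lie proximal to the large olfactory receptor cluster of Chromosome 19 and include chemosensory genes of necklace neurons and the B cell gene *Ms4a1*. All 17 were PAD in NPCs and ACs, 13 in ESCs and 0 in thymus. *Ms4a4b*, *Ms4a4c*, *Ms4a6c* and *Ms4a7* were the 4 that were non-PAD in ESCs. Genes of a family share domains, and no test was made of these counts.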
